A study of Mus musculus with 26 samples.

Results

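The transcripts described here are 40 genes of macrophages and other myeloid cells. They were chosen as a list of symbols, with earlier results of these data known. All 40 were found among the 55416 genes of the deposited tables, and 37 of them were among the 13697 genes tested, which had a mean of at least 1 CPM (read counts scaled to the size of the library) in each of the groups compared. Lyve1, Msr1 and Cd86 were below that minimum. The members were ordered into 8 groups by what their products are known to do.

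The choroid plexus, which makes cerebrospinal fluid, was taken from the 4th ventricle of the mouse brain. Ctrl were C57Bl6J mice with sham surgery and an intact suprachiasmatic nucleus (SCN), the master circadian clock. SCNx were C57Bl6J mice with a bilateral electrolytic lesion of the SCN, selected for loss of locomotor rhythm. Each of these groups held 12 adult male mice, 1 killed every 4 h from circadian time (CT) 0 to CT44 in constant darkness that followed a week of light and dark cycles, so that each time point of a group rested on 1 mouse. KO were 2 mice of the genotype FoxJ1-ERT2-Cre+/-; Bmal1fl/fl fed tamoxifen in light and dark cycles, 1 killed at Zeitgeber time (ZT) 7 and 1 at ZT18. Their tissue was cut by laser from frozen brain and sequenced with another kit, and no Cre-negative or tamoxifen-free mice of that experiment were among the samples. FoxJ1 drives Cre in cells with motile cilia, which include the choroid plexus epithelium and not macrophages.

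Macrophages sit in the stroma of the choroid plexus, along its vessels, and on the ventricular face of its epithelium, where they are called epiplexus or Kolmer cells. They take up debris and pathogens, tag targets with complement C1q, and present peptides on MHC class II. Colony stimulating factor 1 acting on the receptor Csf1r keeps them alive, and the ETS factor PU.1, encoded by Spi1, sets up much of their transcriptome.

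Promoter sequence was available from RefSeq (mouse build GRCm38.p6) for 29 of the 40 members. The letters AGGAAGT, an ETS-type core that PU.1 can bind, stood on either strand within the 300 bases around the start of transcription in 12 of these 29 members and in 10.7% of all 27025 genes with such a sequence. The letters CTGATTGG on either strand, the Y box that NF-Y binds in class II promoters, stood in 2 of the 29, H2-Aa and H2-Eb1, and in 4.70% of all genes. The 4 sequences below are the 150 bases upstream of the start, read 5′ to 3′ on the strand of the gene, with these letters or their reverse complement in capitals. H2-Aa and H2-Eb1 are shown since the class II genes had the most alike values of any group, and C1qb since the C1q genes came next. Ptprc is shown since its difference between SCNx and Ctrl was the largest of the tested members. The positions are chr17:34287824-34287973 on the minus strand for H2-Aa, chr17:34305717-34305866 on the plus strand for H2-Eb1, chr4:136886201-136886350 on the minus strand for C1qb and chr1:138175306-138175455 on the minus strand for Ptprc.
H2-Aa: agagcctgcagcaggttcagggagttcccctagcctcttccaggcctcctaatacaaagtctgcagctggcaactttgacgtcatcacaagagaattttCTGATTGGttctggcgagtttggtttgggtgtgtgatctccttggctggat
H2-Eb1: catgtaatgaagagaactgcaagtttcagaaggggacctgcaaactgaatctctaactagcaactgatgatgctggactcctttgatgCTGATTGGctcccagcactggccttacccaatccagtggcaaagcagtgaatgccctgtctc
C1qb: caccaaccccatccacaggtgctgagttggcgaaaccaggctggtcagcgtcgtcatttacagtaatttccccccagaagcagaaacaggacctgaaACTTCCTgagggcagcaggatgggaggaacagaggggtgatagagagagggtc
Ptprc: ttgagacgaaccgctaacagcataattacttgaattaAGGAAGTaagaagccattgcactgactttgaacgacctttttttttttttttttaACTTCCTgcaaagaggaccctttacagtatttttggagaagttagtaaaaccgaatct
The Y box began 51 bases before the start in H2-Aa and 62 bases before it in H2-Eb1, in the same orientation. The ETS-type core began 53 bases before the start in C1qb, and in Ptprc it stood at 113 bases and, on the other strand, at 58 bases. These matches describe the letters only.

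Estimated counts totalled 38751201 to 47335258 in the Ctrl libraries, 41807043 to 49527655 in SCNx and 17425207 and 18059227 in KO, so depth did not separate Ctrl from SCNx. Several libraries held transcripts of other tissues. The 12 hepatocyte markers summed to 11451 CPM in SCNx CT0, 2595 in Ctrl CT16 and 37.6 or less in the other 22. The 5 astrocyte markers summed to 941 CPM in SCNx CT32 and 713 in Ctrl CT4, beside a Ctrl median of 55.6. The 5 blood markers reached 6659 CPM in SCNx CT44, and the 10 markers of choroid plexus epithelium had medians of 161147 CPM in Ctrl and 149378 in SCNx. Arntl, which encodes BMAL1, was at 10.6 CPM in KO ZT7 and 9.36 in KO ZT18, inside its Ctrl range of 2.01 to 39.4 CPM. These counts cover the whole gene and so do not check the deletion.

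No myeloid gene differed in level between SCNx and Ctrl at an adjusted p under 0.05, but nearly all of them leaned the same way. In edgeR (quasi-likelihood F test, Benjamini-Hochberg adjusted over all genes tested), 0 of 37 members passed, as did 0% of all 13697 genes, and the smallest adjusted p was 0.266, for Ly86. DESeq2 also called 0 of the 37, with a smallest adjusted p of 0.0527, and it called 7 of all 13697 genes. The paper made this pooled comparison with DESeq2 and another filter, and it too reported a small number of genes under 0.05. The 0% is thus that of edgeR. At an unadjusted p under 0.05, 13 of the 37 (35.1%) were higher in SCNx, beside 4.78% of all genes tested, and 0 were lower, beside 4.58%. The fitted value was higher in SCNx for 34 of the 37 members (91.9%), beside 56.5% of all genes. The median log2 fold change of the members was 0.24, that of all genes 0.011, and the members ranged from -0.13 to 0.69. With no minimum CPM all 40 were tested, 35 were fitted higher and 14 had an unadjusted p under 0.05, beside 9.83% of all genes in either direction. These genes share cells and vary together, so their count is not a count of independent results.

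The lean was spread over the SCNx libraries, and a few of them carried its largest values. The median over the 40 members of the log2 ratio to the Ctrl median was above 0 in each of the 12 SCNx libraries, from 0.029 in SCNx CT24 to 0.67 in SCNx CT4. Ctrl libraries ran from -0.31 at CT24 to 0.36 at CT4. Between 25 and 37 members lay above their own Ctrl median in each SCNx library, while Ctrl libraries held from 5 such members at CT40 to 38 at CT4. The groups overlapped by this measure: Ctrl CT4 with 38, Ctrl CT16 with 35 and Ctrl CT28 with 31 stood as high as most SCNx libraries. The summed CPM of the 40 members was 462 ± 53.0 (SD, n = 12) in Ctrl and 532 ± 84.0 (SD, n = 12) in SCNx. The sum in Ctrl had a lowest, median and highest value of 391 (CT0), 453 and 552 (CT16), and that in SCNx of 451 (CT8), 500 and 724 (CT4). Ctsc (median 112 in both groups) and the class II and co-stimulation genes (medians 141 in Ctrl and 160 in SCNx) were a large part of this sum. Without Ctsc it was 350 ± 55.0 in Ctrl and 423 ± 80.5 in SCNx (SD, n = 12 each).

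**Figure D1:**
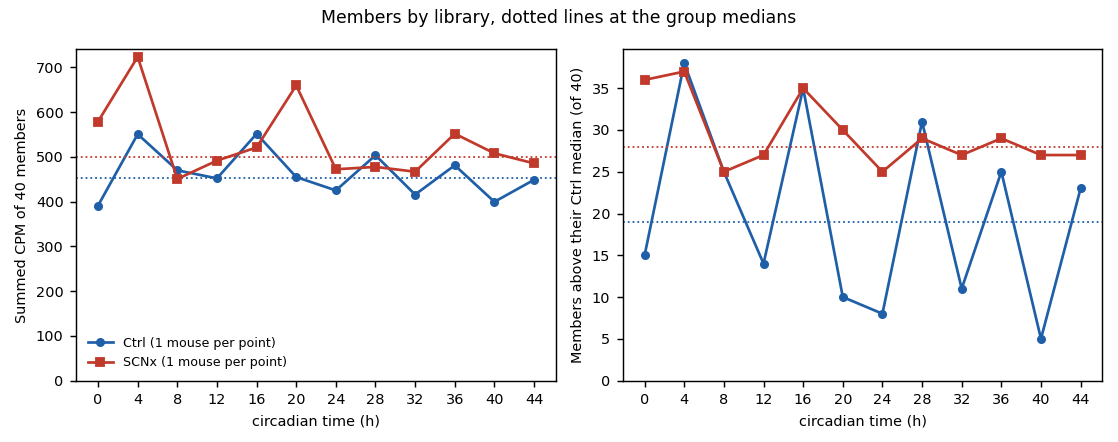
Summed CPM of the 40 members (left) and number of members above their own Ctrl median (right) against circadian time in h, 1 mouse per point, for Ctrl (blue circles) and SCNx (red squares), with the group medians dotted. SCNx CT4 (724 CPM) and SCNx CT20 (660 CPM) stand highest on the left, and no SCNx library holds fewer than 25 members above the Ctrl median on the right.

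SCNx CT4 had the highest value of the 24 libraries for 17 members, SCNx CT0 for 8 and SCNx CT20 for 4. Set side by side at the same circadian time, the sum was higher in the SCNx mouse at 9 of 12 times, and most of the members were higher in it at 11 of 12. CT16 was the exception, with 15 of 40 members higher in SCNx, and CT40 had the most, 35 of 40. Without SCNx CT4, 11 of 37 members had an unadjusted p under 0.05, beside 7.80% of all genes in either direction, and the median log2 fold change was 0.20. Without both SCNx CT4 and SCNx CT20 these values were 7, 7.47% and 0.16, and without Ctrl CT0 and SCNx CT4 they were 7, 6.96% and 0.18. Leaving out Ctrl CT16 instead gave 20 members, beside 10.4% of all genes. The first cycle in darkness alone (CT0 to CT20, n = 6 against 6) gave 5 members, beside 5.56% of all genes, and a median of 0.25. The second alone (CT24 to CT44) gave 9 of 34, beside 18.0% of all genes, and a median of 0.20. The median thus stayed above that of all genes in each of these fits, and the number of members past the unadjusted threshold moved with single libraries.

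**Figure D2:**
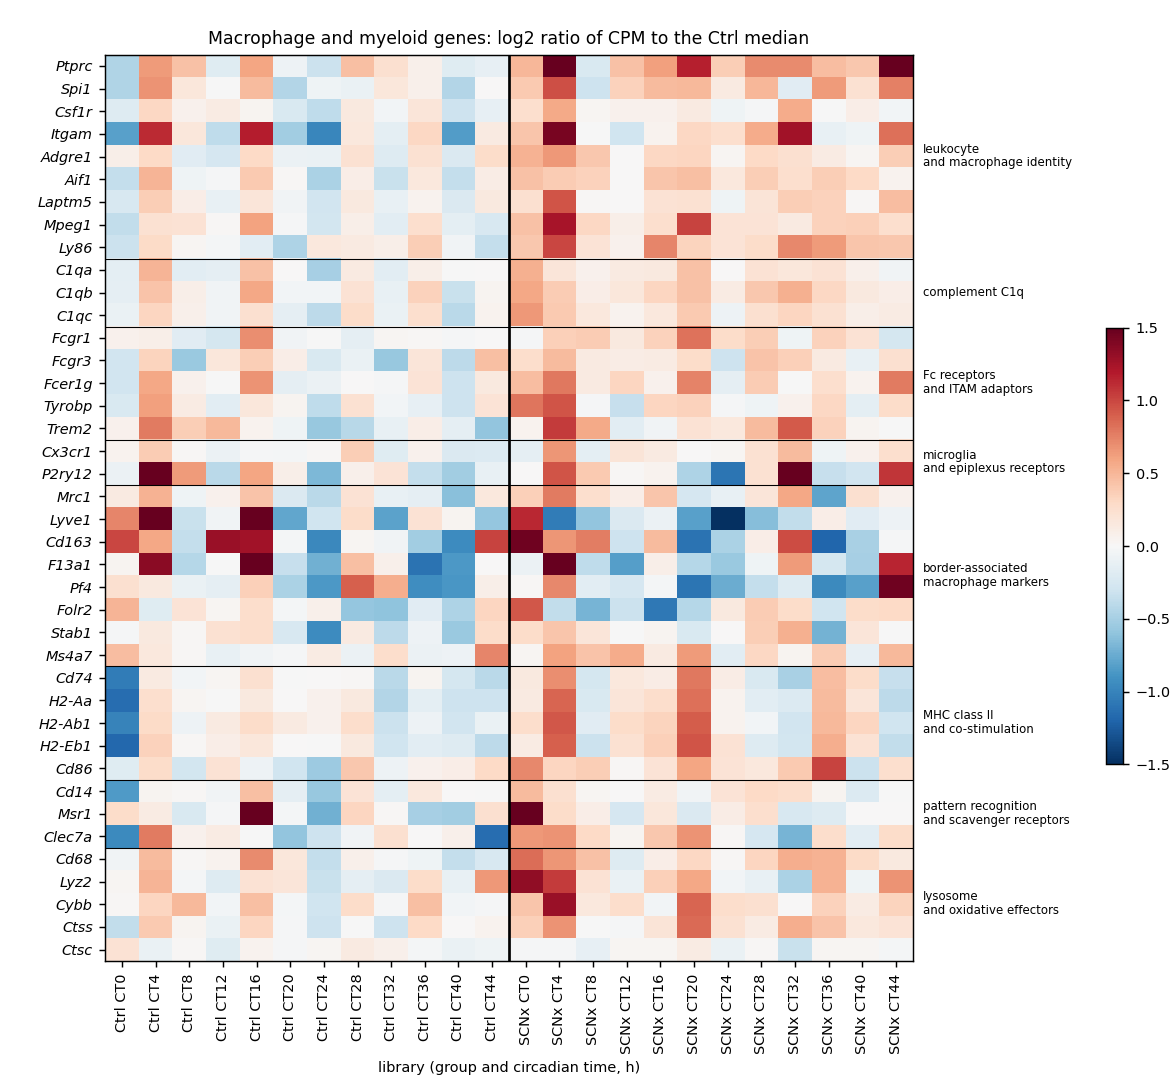
Log2 ratio of CPM to the Ctrl median (colour, clipped at ±1.5, with 0.1 CPM added) for the 40 members (rows, by role) in the 12 Ctrl and 12 SCNx libraries (columns, by circadian time in h). Most rows are red in SCNx CT4 (37 of 40 above the Ctrl median), the class II rows are deep blue in Ctrl CT0, and the border-associated rows vary from library to library in both groups.

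Markers of other blood and immune cells moved in some of the same libraries. The 9 granulocyte markers summed to 34.2 CPM in SCNx CT4, 11.3 in SCNx CT44 and 8.26 in Ctrl CT4, beside a Ctrl median of 0.978. In SCNx CT4 most of this sum was Mpo, myeloperoxidase of immature granulocytes, at 22.1 CPM, followed by Elane, neutrophil elastase, at 4.46 CPM. The 6 B cell markers reached 26.6 CPM in SCNx CT44 and 18.6 in SCNx CT32, beside a Ctrl median of 4.18, and the 7 dendritic cell markers were highest in SCNx CT4 (15.4 CPM, Ctrl 6.19 to 11.4). The 10 markers of T and NK cells spanned 1.48 to 3.12 CPM in Ctrl and 1.74 to 4.87 in SCNx. Without SCNx CT4 and SCNx CT44, 10 of 36 members had an unadjusted p under 0.05, beside 7.07% of all genes, and the median log2 fold change was 0.19. A set of 6 libraries with transcripts of other cells was also left out (Ctrl CT4, Ctrl CT16, SCNx CT0, SCNx CT4, SCNx CT32 and SCNx CT44). In that fit 18 of 33 members had an unadjusted p under 0.05, beside 7.12% of all genes, and the median was 0.24. SCNx CT12, with 144 CPM of the astrocyte markers and 225 CPM of neuronal and cerebellar ones, was kept. In whole tissue, more cells of a type and more RNA per cell cannot be told apart.

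The 9 genes of leukocyte and macrophage identity had the largest differences. All 9 were fitted higher in SCNx, 7 with an unadjusted p under 0.05, and their median log2 fold change was 0.38. Ptprc (ENSMUSG00000026395), the CD45 phosphatase of all white blood cells, had a lowest, median and highest CPM of 2.40, 3.33 and 5.25 in Ctrl and of 2.82, 4.94 and 11.3 in SCNx. Of the SCNx libraries 5 stood above the whole Ctrl range, led by CT44 and CT4. The log2 fold change of Ptprc was 0.69 ± 0.19 (SE, p = 0.00158, adjusted p = 0.366). Ly86 (ENSMUSG00000021423), the MD-1 partner of the Toll-like receptor homologue RP105, ran through 1.46, 2.06 and 2.69 CPM in Ctrl and 2.16, 2.76 and 4.20 in SCNx. Of the 12 SCNx mice 7 lay above the highest Ctrl mouse and 7 Ctrl mice lay below the lowest SCNx mouse, the clearest separation among the members. Its difference was 0.50 ± 0.12 on the log2 scale (SE, p = 0.000227, adjusted p = 0.266), and leaving out any 1 library kept it between 0.44 and 0.54.

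Mpeg1, the pore-forming perforin-2 of phagocytes, had 13.9, 18.0 and 27.6 CPM as its lowest, median and highest value in Ctrl and 19.2, 22.01 and 42.6 in SCNx. All 12 SCNx values were above the Ctrl median, and CT4 and CT20 stood far above the other SCNx mice. The log2 fold change was 0.41 ± 0.13 (SE, p = 0.00476, adjusted p = 0.400), or 0.31 without SCNx CT4. Aif1, the actin-binding IBA1 used to stain microglia and macrophages, spanned 0.867 to 1.82 CPM in Ctrl (median 1.25) and 1.25 to 1.75 in SCNx (median 1.63). No SCNx mouse exceeded the Ctrl range, while 6 Ctrl mice lay below the lowest SCNx mouse. Its log2 fold change was 0.32 ± 0.11 (SE, p = 0.00971, adjusted p = 0.432). Adgre1, the F4/80 antigen, had 4.46, 5.32 and 6.59 CPM in Ctrl against 5.35, 6.59 and 8.41 in SCNx, where 6 mice lay above the highest Ctrl mouse, and a log2 fold change of 0.24 ± 0.088 (SE, p = 0.0112, adjusted p = 0.443).

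Laptm5, a lysosomal membrane protein of blood cells, had 8.96, 10.9 and 14.1 CPM in Ctrl and 10.5, 12.8 and 21.1 in SCNx. The highest value was again SCNx CT4, and the log2 fold change was 0.26 ± 0.097 (SE, p = 0.0123, adjusted p = 0.443). Spi1, which encodes PU.1, was low throughout, at 0.875, 1.23 and 2.03 CPM in Ctrl and 0.978, 1.70 and 2.50 in SCNx, with a log2 fold change of 0.39 ± 0.16 (SE, p = 0.0208, adjusted p = 0.480). Csf1r, the receptor the cells need to survive, had the smallest difference of this group, 0.18 ± 0.087 (SE, p = 0.0545), around medians of 22.7 CPM in Ctrl and 23.8 in SCNx. Itgam, the CD11b chain shared with granulocytes, had the widest spread, from 1.22 to 5.79 CPM in Ctrl and from 2.00 to 6.89 in SCNx, and a log2 fold change of 0.38 ± 0.27 (SE, p = 0.165). Its highest SCNx value was in SCNx CT4, where the granulocyte markers also peaked, and its highest Ctrl values were in CT16 and CT4. Its fitted difference, the log2 fold change of Itgam, was 0.25 without SCNx CT4, 0.091 in the first cycle and 0.71 in the second.

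**Figure D3:**
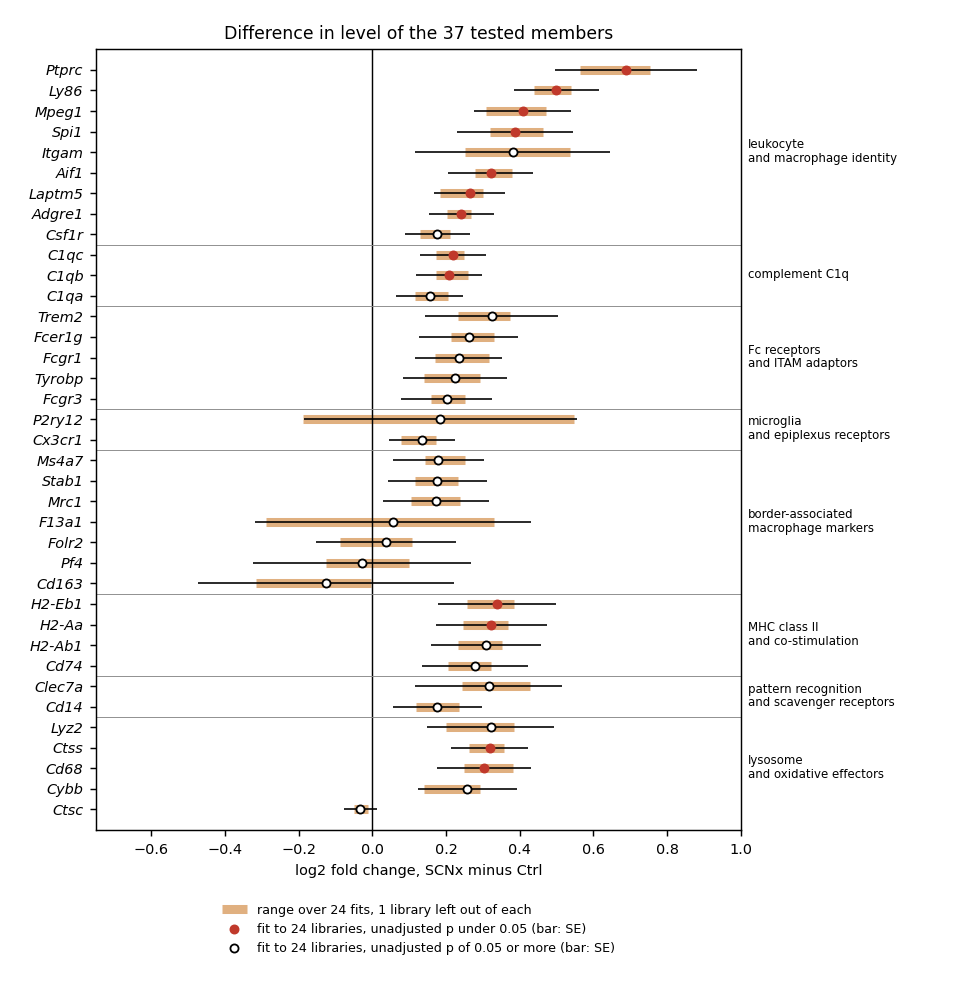
Log2 fold change, SCNx minus Ctrl, of the 37 tested members by role, from the fit to all 24 libraries (points, with SE as thin bars) and as a range over 24 fits that each leave out 1 library (thick bars). The identity genes reach from 0.18 to 0.69 and stay above 0 in every such fit, whereas P2ry12, F13a1, Pf4 and Folr2 cross 0.

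The 3 complement genes, whose products assemble into the C1q recognition molecule, moved as 1 set from mouse to mouse. Their pairwise correlations over the 24 libraries were 0.80 to 0.89, a description over libraries that share depth and dissection. C1qb (ENSMUSG00000036905) had 7.62, 9.65 and 14.4 CPM in Ctrl and 10.3, 12.0 and 14.5 in SCNx, and C1qc had 7.20, 9.56 and 12.0 in Ctrl and 9.04, 10.9 and 15.1 in SCNx. Every SCNx mouse was above the Ctrl median of C1qb and 8 Ctrl mice were below its lowest SCNx mouse, yet only 1 SCNx mouse exceeded the Ctrl range. The log2 fold changes were 0.21 ± 0.090 for C1qb (SE, p = 0.0293, adjusted p = 0.495) and 0.22 ± 0.089 for C1qc (SE, p = 0.0218, adjusted p = 0.480). C1qa followed at 0.16 ± 0.091 (SE, p = 0.101). All 3 peaked among the SCNx mice in CT0, which held the hepatocyte transcripts, and without that library the log2 fold change of C1qc was 0.17.

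None of the 5 Fc receptor and ITAM adaptor genes reached an unadjusted p under 0.05, although all 5 were fitted higher in SCNx, from 0.20 to 0.32. Fcgr1, the high-affinity IgG receptor, came closest, with 1.30, 1.58 and 2.63 CPM in Ctrl, 1.30, 1.97 and 2.86 in SCNx and a log2 fold change of 0.23 ± 0.12 (SE, p = 0.0578, adjusted p = 0.558). Its ranges were almost the same in both groups. Fcer1g and Tyrobp, the adaptors through which such receptors signal, had log2 fold changes of 0.26 and 0.22. Fcgr3 had 0.20 and Trem2, the lipid receptor that pairs with Tyrobp, 0.32, with SE of 0.12 and 0.18.

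The receptors used to recognise microglia and epiplexus cells had small differences. Cx3cr1, the fractalkine receptor, had 11.5, 13.3 and 17.5 CPM in Ctrl and 12.0, 14.3 and 21.2 in SCNx, with a log2 fold change of 0.14 ± 0.090 (SE, p = 0.144, adjusted p = 0.655). P2ry12, the ADP receptor of resting microglia, was near 1 CPM in most mice of both groups (medians 1.01 and 1.04) and at 4.49 CPM in Ctrl CT4 and 5.17 in SCNx CT32. Those are the libraries with the astrocyte transcripts. Its log2 fold change was 0.18 ± 0.37 (SE) with them, 0.55 without Ctrl CT4 and -0.19 without SCNx CT32, so its direction rested on 1 library. The 8 further microglia markers had a median log2 fold change of 0.11 over the 6 tested, 0 of them with an unadjusted p under 0.05. Olfml3, one of these, was highest in SCNx CT32, at 43.7 CPM against a Ctrl median of 24.4.

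The list held 8 markers of border-associated macrophages, the cells that line brain vessels and membranes. Of the 7 tested, 5 were fitted higher and 2 lower, the median log2 fold change was 0.056, and none had an unadjusted p under 0.05. Ms4a7, a tetraspan protein of these cells, had the smallest p, with 1.36, 1.48 and 2.52 CPM in Ctrl, 1.31, 1.9 and 2.36 in SCNx and a log2 fold change of 0.18 ± 0.12 (SE, p = 0.158, adjusted p = 0.669). Mrc1, the mannose receptor CD206, and Stab1, the scavenger receptor stabilin-1, were close to it with 0.17 ± 0.14 and 0.18 ± 0.13 (SE). Folr2, a folate receptor, was at 0.037 ± 0.19 (SE) around medians of 3.07 CPM in Ctrl and 2.94 in SCNx. In the first cycle its log2 fold change was -0.33 and in the second 0.40. F13a1, the coagulation factor XIII A chain, and the chemokine Pf4 were at 0.056 ± 0.37 and -0.028 ± 0.30 (SE).

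Cd163, the haemoglobin scavenger receptor, had the lowest log2 fold change of the tested members, -0.13 ± 0.35 (SE, p = 0.721), and its highest value, 2.89 CPM, in SCNx CT0. Without that library the log2 fold change of Cd163 was -0.32, and it was -0.0029 without Ctrl CT12. Lyve1, a hyaluronan receptor of perivascular macrophages and lymphatic vessels, was the scarcest member, with 0.0725, 0.201 and 1.16 CPM in Ctrl and 0, 0.146 and 0.558 in SCNx. Tested with no minimum CPM, its log2 fold change was -1.05 ± 0.51 (SE, p = 0.0503, adjusted p = 0.511). The pairwise correlations within this group had a median of 0.26, lower than in the identity group (0.66), the C1q group (0.81) or the class II group (0.97). The correlations are a description, without a test of the difference between groups.

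MHC class II genes were set apart by how tightly they moved together. Cd74, the invariant chain that guides class II molecules to the endosome, and the chain genes H2-Aa, H2-Ab1 and H2-Eb1 were all fitted higher in SCNx, with log2 fold changes of 0.28 to 0.34. H2-Aa (ENSMUSG00000036594) had 13.9, 30.9 and 36.8 CPM in Ctrl and 23.4, 34.3 and 56.7 in SCNx, with a log2 fold change of 0.32 ± 0.15 (SE, p = 0.0422, adjusted p = 0.504). Its lowest Ctrl mouse, CT0, stood far below the other 11, and SCNx CT4 and CT20 stood above the rest of both groups. H2-Eb1 (ENSMUSG00000060586) repeated this, with 10.5, 23.8 and 30.4 CPM in Ctrl, 18.4, 27.7 and 45.9 in SCNx and a log2 fold change of 0.34 ± 0.16 (SE, p = 0.0464, adjusted p = 0.520). The summed class II and co-stimulation genes were at 67.1 CPM in Ctrl CT0, 254 in SCNx CT20 and 248 in SCNx CT4, around medians of 141 in Ctrl and 160 in SCNx. Without SCNx CT4 the p of H2-Aa was 0.0993, and without SCNx CT20 that of H2-Eb1 was 0.108. Cd86, the co-stimulatory ligand of CD28, was below the minimum CPM, with medians of 0.921 in Ctrl and 1.14 in SCNx. With no minimum its log2 fold change was 0.37 ± 0.16 (SE, p = 0.0260, adjusted p = 0.482), and its correlation with the class II genes was as low as 0.31.

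**Figure D4:**
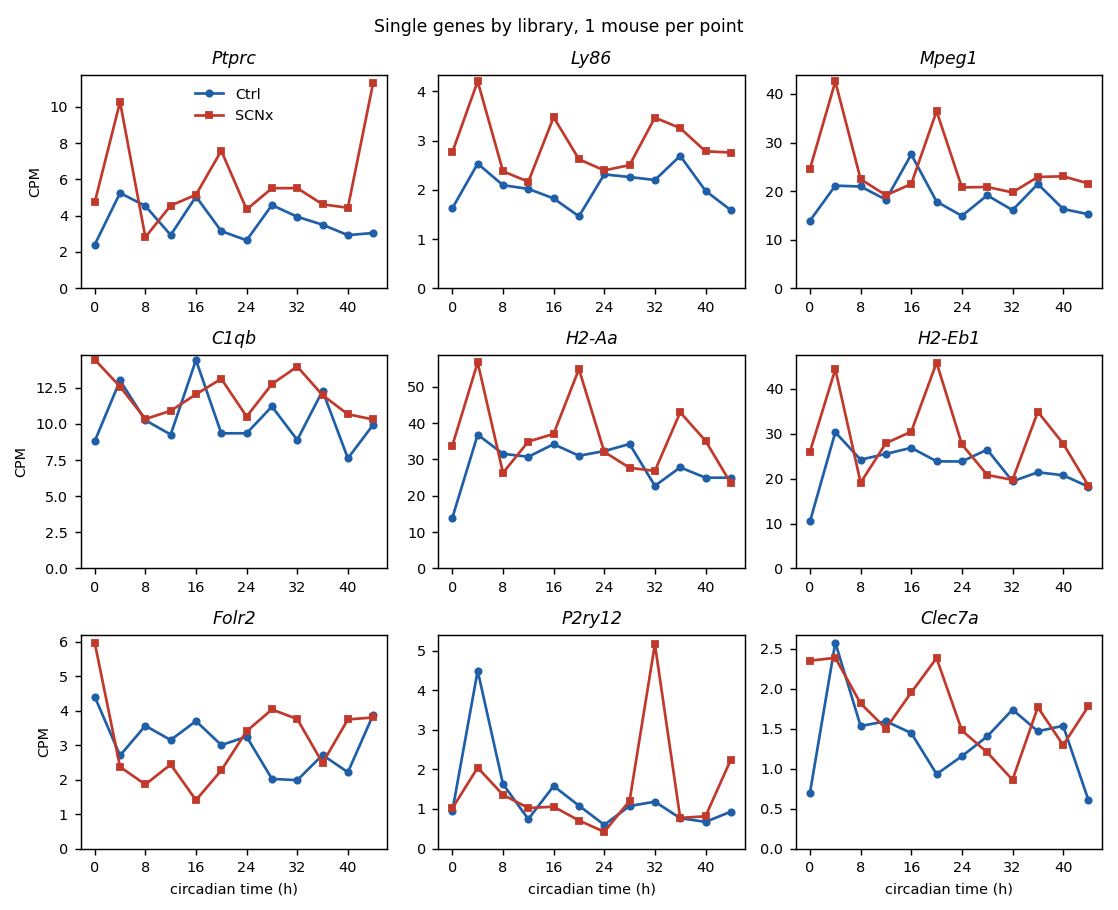
CPM of 9 members against circadian time in h, 1 mouse per point, for Ctrl (blue circles) and SCNx (red squares). Ptprc, Mpeg1, H2-Aa and H2-Eb1 have shared high points in SCNx CT4 and CT20, Ptprc a further one in SCNx CT44 (11.3 CPM), and P2ry12 single high points in Ctrl CT4 and SCNx CT32.

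Among the pattern recognition and scavenger receptors, Clec7a, the beta-glucan receptor dectin-1, had 0.604, 1.46 and 2.58 CPM in Ctrl, 0.861, 1.78 and 2.39 in SCNx and a log2 fold change of 0.32 ± 0.20 (SE, p = 0.127, adjusted p = 0.635). Cd14, the co-receptor for bacterial lipopolysaccharide, had 0.18 ± 0.12 (SE, p = 0.154). Neither range exceeded that of the other group by more than 1 mouse on the high side. Msr1, the scavenger receptor A, reached 2.51 CPM in Ctrl CT16 and 2.11 in SCNx CT0, beside a Ctrl median of 0.645. These are the libraries with hepatocyte transcripts, and the 5 markers of Kupffer cells, the macrophages of the liver, summed to 31.1 CPM in SCNx CT0 and 3.36 in Ctrl CT16 and to 0.255 or less in the other 22. Clec4f and Cd5l, which define Kupffer cells, reached 12.9 and 11.6 CPM in SCNx CT0, and their Ctrl medians were 0. The part of these transcripts in the members' values there was not tested. Without Ctrl CT16 and SCNx CT0, 34 of 37 members were fitted higher and 17 had an unadjusted p under 0.05, beside 11.3% of all genes in either direction.

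The lysosomal and oxidative genes were divided. Ctss, the cathepsin that trims the invariant chain in antigen-presenting cells, had 12.9, 16.7 and 21.9 CPM in Ctrl, 16.4, 19.4 and 30.1 in SCNx and a log2 fold change of 0.32 ± 0.10 (SE, p = 0.00538, adjusted p = 0.409). Cd68, a lysosomal glycoprotein of macrophages, had 1.895, 2.45 and 4.07 CPM in Ctrl, 2.14, 3.07 and 4.46 in SCNx and 0.30 ± 0.13 (SE, p = 0.0265, adjusted p = 0.495). Both were spread over the SCNx mice, with 10 and 11 of 12 above the Ctrl median. Lyz2, lysozyme, and Cybb, the NADPH oxidase subunit NOX2, had 0.32 ± 0.17 and 0.26 ± 0.13 (SE) and unadjusted p of 0.0743 and 0.0662. Lyz2 was highest in SCNx CT0, at 68.8 CPM against 27.4 for the Ctrl median, and without that library its log2 fold change was 0.20. That of Cybb was 0.14 without SCNx CT4. Ctsc, the cathepsin that activates granule proteases and is made by many cell types, was the most abundant member in CPM, with medians of 112 in both groups and a log2 fold change of -0.033 ± 0.045 (SE, p = 0.466).

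Per kilobase of exon the order differed from that in CPM. Over the Ctrl libraries Cd74 came first with a mean of 37.3 CPM per kb, then Lyz2 with 22.3, Ctsc with 19.3, Ctss with 12.4 and H2-Eb1 with 11.6. Trem2 (0.211), Ptprc (0.200), Msr1 (0.122) and Lyve1 (0.113) were the lowest. The largest difference in level among the tested members, that of Ptprc, thus belonged to a gene low in this order. Its length here, 18.3 kb, is the union of all annotated exons, and its place rests on that measure. In CPM its Ctrl mean was 3.66.

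Most genes of the related lists were likewise fitted higher in SCNx. Of 33 tested among 42 other macrophage and leukocyte genes, 26 were fitted higher in SCNx and 10 of these had an unadjusted p under 0.05, and 0 were lower with one. Over all genes tested, 56.5% were fitted higher, 4.78% were higher with such a p and 4.58% were lower with one. Lcp1, the actin bundler plastin-2, and Itgb2, the beta 2 integrin chain that pairs with CD11b, had log2 fold changes of 0.39 ± 0.12 (SE, p = 0.00295, adjusted p = 0.375) and 0.50 ± 0.18 (SE, p = 0.00926, adjusted p = 0.432), followed by Inpp5d with 0.29 ± 0.12 (SE). Of 10 myeloid transcription factors, 9 were fitted higher, 4 with an unadjusted p under 0.05, and 1, Maf, was lower with one, by -0.082 ± 0.035 (SE, p = 0.0288). Maf, named after its values were seen, was at a mean of 100.5 CPM in Ctrl. Ciita, the coactivator that class II transcription needs, had 0.67 ± 0.22 (SE, p = 0.00456, adjusted p = 0.395) and means of 1.12 ± 0.37 CPM in Ctrl and 1.79 ± 0.73 in SCNx (SD, n = 12). Like the class II genes it was highest in SCNx CT4, at 3.61 CPM. Ikzf1 and Irf5 had 0.51 ± 0.17 and 0.39 ± 0.15 (SE).

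Ligands and receptors that recruit or sustain the cells were mixed. Of 6 tested among 10, 4 were fitted higher, and Ccr2, the chemokine receptor of blood monocytes, was the one with an unadjusted p under 0.05. Its mean was 1.40 ± 0.62 CPM in Ctrl and 3.15 ± 3.23 in SCNx (SD, n = 12), and its log2 fold change 1.17 ± 0.36 (SE, p = 0.00349, adjusted p = 0.377). SCNx CT4 alone had 12.9 CPM, and the medians were 1.20 and 2.07. Il34, a ligand of Csf1r, had -0.20 ± 0.16 and Cx3cl1, fractalkine, -0.11 ± 0.058 (SE, p = 0.224 and 0.0614). Csf1, the other ligand of Csf1r, named after its values were seen, had 0.029 ± 0.072 (SE, p = 0.686). The adjusted p was at least 0.375 for every gene of these lists.

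Among all 13660 tested genes outside the members, those most like the members' mean over the 24 libraries were Cyth4 (Pearson r = 0.91), Lcp1, Itgb2, Vav1, Fyb, Selplg, Inpp5d, Nckap1l, Ccr2 and Irf5 (r = 0.81). Of these 10, 6 stand in the lists above. Their log2 fold changes ran from 0.27 for Cyth4 to 1.17 for Ccr2. The members' mean spans both groups, so the difference between the groups took part in choosing these genes. Among the members, 31 of 37 had a correlation above 0.5 with that mean, and the least alike were Ctsc with -0.077 and Folr2 with 0.013. Each of these members is part of the mean, which raises its own correlation, and the share of all genes above 0.5 was not counted. The points share library and dissection, and the values are a description.

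No member passed the test for a 24 h rhythm. The paper lists Cd14 among its rhythmic genes in Ctrl, from other algorithms at a looser threshold. On simulated counts the test used here recovered 36.5% of rhythms in Ctrl with a log2 amplitude of 0.3. In Ctrl 0 of 37 had an adjusted p under 0.05 for a 24 h cosine in edgeR, beside 10.7% of all genes, and 1 had an unadjusted p under 0.05, beside 24.8%. In SCNx these were 0 of 37 beside 0% and 1 beside 14.8%, and for the difference of rhythm between the groups 0 of 37 beside 2.12% and 2 beside 15.1%. Clec7a was the one with an unadjusted p under 0.05 in Ctrl. Its log2 amplitude was 0.55 ± 0.18 (SE) with a peak at 8.57 h (p = 0.0256, adjusted p = 0.134), low in CT0, CT20 and CT44. In SCNx its amplitude was 0.25 ± 0.18 (SE), and the difference of rhythm had an adjusted p of 0.228. The SE of an amplitude came from a separate linear fit to log2 CPM. It is not the error of the fit that gave the amplitude and p, and the 2 need not match. Csf1r, Cd14, Ly86 and Cx3cr1 came next in Ctrl, with amplitudes of 0.20, 0.27, 0.26 and 0.18 and adjusted p of 0.227 to 0.307. Without the 6 libraries named above, 3 members, Clec7a, Csf1r and Ctsc, had an adjusted p under 0.05 in Ctrl, beside 21.1% of all genes.

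Trem2 had the smallest p in SCNx, with an amplitude of 0.45 ± 0.11 (SE) and a peak at 5.78 h (p = 0.0201, adjusted p = 0.241), followed by Lyz2 and Folr2 with adjusted p of 0.401 and 0.419. The rhythm of Cd14 differed between the groups at an unadjusted p of 0.0324 (adjusted p = 0.284), with a peak at 12.3 h in Ctrl and 3.12 h in SCNx, and that of Ptprc had p = 0.0896. The median amplitude over the members was 0.14 in Ctrl and 0.18 in SCNx on the log2 scale, beside 0.11 and 0.091 over all genes. A fitted amplitude is never below 0 and grows with the scatter of a gene, so these medians do not show more rhythm in the members.

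The KO libraries hold 1 mouse per time and no matched control, so their values are given without a test of the genotype. The members summed to 322 CPM in KO ZT7 and 367 in KO ZT18. Ctsc had 965 and 889 counts (55.4 and 49.2 CPM), Cd74 666 and 1114 (38.2 and 61.7 CPM), Ctss 572 and 541 (32.8 and 30.0 CPM), Lyz2 371 and 294 (21.3 and 16.3 CPM) and H2-Ab1 291 and 368 (16.7 and 20.4 CPM). Both KO values lay below the Ctrl range for 9 members, Adgre1, Mpeg1, C1qb, Cx3cr1, Pf4, Folr2, Ms4a7, Lyz2 and Ctsc, beside 41.7% of all genes tested. They lay above it for 2, Ptprc and Ctss, beside 16.7%. For Ctsc the Ctrl range was 98.7 to 129 CPM. Mitochondrial genes took 25.1% of the counts in KO ZT7 and 21.8% in KO ZT18, beside 3.92 to 8.77% in Ctrl. Scaled to the counts outside the mitochondrial genes in both groups, 3 members lay below the Ctrl range, beside 25.9% of all genes, and 5 above it, beside 28.7%, so these placements moved with the scaling. The KO libraries also had 784 and 929 CPM of the astrocyte markers and 86752 and 82399 CPM of the epithelial ones, and laser capture, kit and genotype cannot be told apart in them.

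Between ZT7 and ZT18, 21 of 40 members were higher at ZT18, and the 95% Poisson intervals, which cover counting error only, did not overlap for 9. Of the 37 tested members 6 were higher at ZT18 in this way, beside 27% of all genes tested, and 2 were lower, beside 10.7%, and Lyve1 was the remaining 1. Cd74, with intervals of 35.4 to 41.2 and 58.1 to 65.4 CPM, was the most deeply counted of them. Lyz2 went the other way, with 19.2 to 23.6 CPM at ZT7 and 14.5 to 18.3 at ZT18. Lyve1 had 0 counts at ZT7, where the interval reaches 0.21 CPM, and 15 at ZT18 (0.830 CPM). These are differences between 2 mice.

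**Figure D5:**
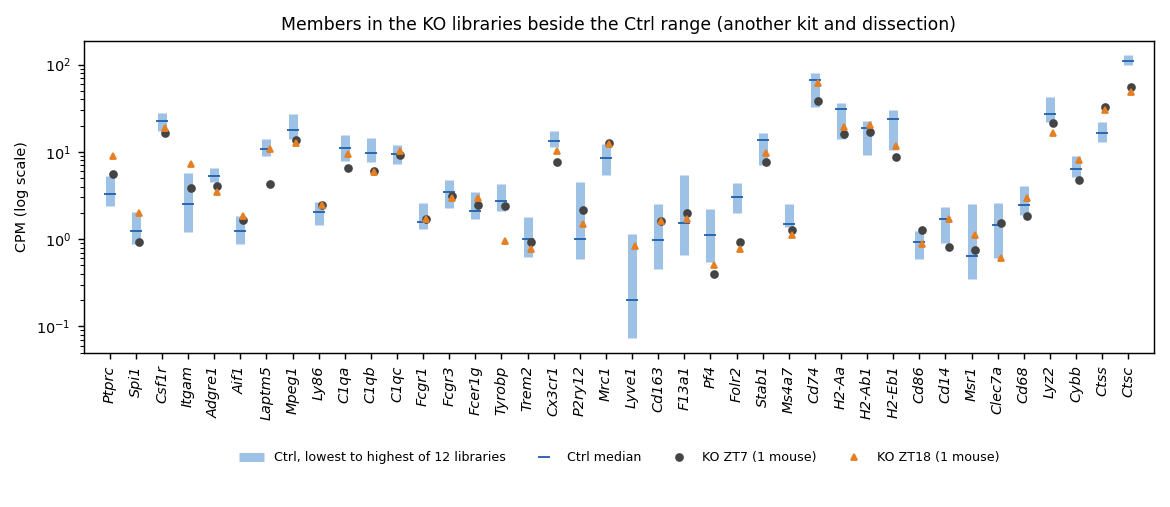
CPM on a log scale of the 40 members in KO ZT7 (dark circles) and KO ZT18 (orange triangles), 1 mouse each, beside the lowest to highest of the 12 Ctrl libraries (blue bars, with the median marked). Ctsc and Folr2 lie below the bars and Ctss above them at both times, and the value of 0 for Lyve1 at ZT7 cannot be drawn on this axis.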

How the data were processed

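RNA from choroid plexus was measured in 12 Ctrl, 12 SCNx and 2 KO libraries. The authors deposited estimated counts per gene, made with nf-core/rnaseq, which trimmed reads with cutadapt 3.4, aligned them with STAR to GRCm39 and quantified them with Salmon 1.9.0, per their methods and processing notes. Poly(A) RNA was sequenced for Ctrl and SCNx, total RNA for KO, so levels were not tested across these tables. Counts were rounded to whole numbers. Reads shared by near-identical genes are divided by the Salmon model.

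CPM was the count scaled to the effective library size (TMM, edgeR 4.0.16) in Ctrl and SCNx and to the total in KO. Genes with a mean of at least 1 CPM in Ctrl and in SCNx were kept. SCNx was compared with Ctrl by the quasi-likelihood F test on group alone, and rhythm by a cosine of 24 h in each group and its difference between groups, with p adjusted over all genes by Benjamini-Hochberg. The SE of a fold change was taken from the F statistic. The SE of an amplitude was taken from the residuals of that group in a linear fit of the same cosine to log2 CPM, not from the tested fit. The replicates are mice labelled as separate samples. The fits were tested on simulated data before use. Alternatives used DESeq2 1.42.0, limma 3.58.1 (trend), other filters and scalings, and left out libraries. Other tools were R 4.3.3, Python 3.11.15 and SciPy 1.17.1.

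The 40 members, the 3 lists of other myeloid genes (62 genes) and the 16 lists of cell markers were chosen with earlier results of these data known. Values by library were given for the 12 members with the smallest p and the smallest of each role, for rhythm the 5 in Ctrl and 3 each in SCNx and for the difference with the smallest p, in KO the 5 members with the most counts and those at 3 counts or fewer, from other lists up to 3 genes with the smallest p, and the 10 genes most correlated with the members' mean. The other members were given by fold change or range. Mpo, Elane, Clec4f, Cd5l, Csf1 and Maf were named after their values were seen. Exon lengths came from GENCODE M21 and promoters from RefSeq, both of build GRCm38, matched by gene and not by coordinate.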

Additional observations from a re-analysis of the deposited data

How the results depend on the processing

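No member passed an adjusted p of 0.05 in level in any of the 40 settings, which covered other tools, scalings and filters, each of 24 libraries left out in turn, pairs and sets of libraries left out, and each cycle alone. Of 1450 fold changes of the 37 members under these settings, 34 had the opposite sign, all in P2ry12, F13a1, Pf4 or Folr2. The number of members fitted higher was 17 (of 18 tested) at a minimum mean of 5 CPM, where fewer genes are tested. The other myeloid genes with an unadjusted p under 0.05, in either direction, numbered 3 there instead of 16. Of all genes tested, 9.89% had such a p there and 9.37% in the main fit.

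Members with an unadjusted p under 0.05 numbered 9 (without Ctrl CT40) to 20 (without Ctrl CT16) when 1 library was left out. In those 2 fits 7.91% and 10.4% of all genes had one, in either direction. Without Ctrl CT4 and SCNx CT32 the members numbered 22, beside 8.67% of all genes, and in the first cycle alone 5, beside 5.56%. Without SCNx CT4 and SCNx CT20 they numbered 7, beside 7.47%, and without Ctrl CT0 and SCNx CT4 also 7, beside 6.96%. The other myeloid genes ranged from 9 (without SCNx CT4) to 19 (without Ctrl CT28), with 7 without SCNx CT4 and SCNx CT20, 8 without SCNx CT4 and SCNx CT44 and 6 without Ctrl CT0 and SCNx CT4. Members called rhythmic in Ctrl numbered 0, but 1 (Clec7a) without Ctrl CT4 and SCNx CT32, beside 16.5% of all genes. They numbered 3 without the 6 libraries named above for transcripts of other cells, beside 21.1%. Members with both KO values below the Ctrl range numbered 3 with CPM without mitochondrial counts, instead of 9. The removal of SCNx CT4 with SCNx CT20, of SCNx CT4 with SCNx CT44, of Ctrl CT0 with SCNx CT4 and of those 6 libraries, and the scaling without mitochondrial counts, were chosen after seeing the data. The cause of these shifts was not tested.

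The log2 fold change of P2ry12 ranged from -0.19 to 0.55 with 1 library left out and was -0.54 in the first cycle. The log2 fold change of F13a1 ranged from -0.29 to 0.33 and was -0.0067 with 24 h terms as covariates, -0.25 without SCNx CT4 and SCNx CT20, -0.49 without SCNx CT4 and SCNx CT44, -0.31 without Ctrl CT0 and SCNx CT4, -0.13 without the 6 libraries and -0.24 in the first cycle. The log2 fold change of Pf4 ranged from -0.13 to 0.098 and was 0.0079 without Ctrl CT16 and SCNx CT0 and 0.019 in the second cycle. The log2 fold change of Folr2 ranged from -0.087 to 0.11 and was -0.022 in limma, -0.059 without Ctrl CT16 and SCNx CT0, -0.0093 without Ctrl CT4 and SCNx CT32, -0.16 without the 6 libraries and -0.33 in the first cycle.

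Mice of the 2 groups share only a circadian time. Over the 12 time pairs their deviations from the group means correlated at -0.44 to 0.33, above 0.1 in 5, so the times do not pair the mice. With circadian time as a replicate block, 0 members passed the adjusted threshold and 18 had an unadjusted p under 0.05, beside 6.84% of all genes in either direction. In that fit 33 members were fitted higher, and Folr2 had -0.017. At the depths given, intervals and counts cover counting error only.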

Other observations

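Cells of the stroma and vessels that surround the macrophages were measured in the same libraries. The 4 endothelial markers were all fitted higher in SCNx (median 0.23 on the log2 scale), and so were the 5 pericyte markers (median 0.12), none with an unadjusted p under 0.05. Of the 5 fibroblast markers 3 were fitted higher, and Dcn, the matrix proteoglycan decorin, had 0.18 ± 0.067 (SE, p = 0.0139, adjusted p = 0.450 in edgeR). Kit, the stem cell factor receptor and the 1 mast cell marker tested of 6, had 0.37 ± 0.16 (SE, p = 0.0312, adjusted p = 0.495 in edgeR), and the summed mast cell markers spanned 9.54 to 22.9 CPM in Ctrl and 14.03 to 27.6 in SCNx.

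Of the 10 epithelial markers 2 were fitted higher and 8 lower, with a median of -0.056. Kcnj13, an inward rectifier potassium channel of the epithelium, had -0.14 ± 0.047 (SE, p = 0.00648, adjusted p = 0.411 in edgeR). CPM is a share of the library, so a lower share of epithelial transcripts and a higher share of others cannot be told apart here from changes in either. The 7 tested neuronal and cerebellar markers had a median of -0.0053, and their sum was highest in SCNx CT32 (501 CPM) and Ctrl CT4 (465 CPM). The 3 tested oligodendrocyte markers had a median of -0.024. In the KO mice the neuronal sums were 386 and 606 CPM, and the microglial sums, 72.7 and 70.7 CPM, lay below the Ctrl range of 82.6 to 111.9 CPM. Both KO values lay below the Ctrl range for 41.7% of all genes tested as well. These sums were scaled to totals that include the larger mitochondrial share of the KO libraries, and their place without it was not tested.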
